A study of Danio rerio with 8 samples.

Results

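The proteasome subunit genes of the zebrafish (Danio rerio) were taken as all entries of the deposited count table whose names begin with psma, psmb, psmc or psmd and a digit. There were 47 such entries of 36109. The 20S core (psma and psmb) had 23 and the 19S cap (psmc and psmd) had 24. Of these, 40 passed the filter on low counts and were tested, 16 of the core and all 24 of the cap. The name pattern also took in psmc3ip, a meiotic recombination factor that is not part of the proteasome, and the assembly chaperones psmd5, psmd9 and psmd10, which leave the particle before it is mature.

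The study asked how blocking cysteine proteases changes gene expression in the early embryo. Wild-type AB embryos with a nicked chorion were kept in medium with PTU, which blocks pigment, and with either 3 µM E64d, which enters cells and blocks proteases of the cysteine class, or the solvent DMSO alone. Treatment began at 1 hour and ended at 24 hours after fertilization, and RNA of whole embryos was sequenced. There were 4 E64d libraries and 4 DMSO libraries, and every library came from its own pool of 7 embryos. Errors therefore measure how pools differ, not how single embryos differ. The labels state 0.5% DMSO for both groups, while the dilution from the 10 mM stock comes to 0.03% DMSO for E64d.

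The proteasome is the protease complex that breaks down proteins tagged with ubiquitin in the cytosol and nucleus. Its barrel, the 20S core, is made of rings of alpha subunits, which form the gate, and rings of beta subunits, some of which carry the cutting sites. The 19S cap recognizes the ubiquitin chain, removes it and unfolds the protein with a ring of ATPases. The cutting sites use threonine, so that the proteasome is not of the cysteine protease class that E64d is known for. In mammalian cells, subunit genes are known to be transcribed together under the factor NFE2L1.

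Libraries held 29422983 to 37309883 counts. Over the whole table, edgeR's quasi-likelihood test called 853 of 22163 genes lower and 506 higher in E64d at an adjusted p under 0.05. Scaled by library totals alone, 498 were lower and 803 higher. With the replicate number as a block, which the main test did not use, 1540 were lower and 1040 higher. Mitochondrial genes took 1.90, 0.847, 1.27 and 1.83% of the counts in DMSO replicates 1 to 4, and 1.72% to 1.97% in the E64d pools. DMSO replicate 2 was the lowest in this share, and DMSO replicate 3 also lay below every E64d pool. Values are CPM, that is, read counts divided by the TMM-adjusted size of the library, and library values are given in the order of replicates 1 to 4. CPM are not corrected for gene length, so levels are compared between libraries and not between genes.

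After 23 hours in E64d, many proteasome subunit genes of the core and of the cap had lower mRNA levels. Levels are relative to the reads counted in a library, so amounts per embryo were not measured. Of the 40 tested members, 18 were called lower and none higher, against 3.85% of all genes tested called lower and 2.28% called higher. Among genes with a mean of at least 40 CPM, 10.3% were called lower, against 17 of 34 members at that level. The called falls were modest, with log2 fold changes of −0.23 to −0.69, or levels 14.9% to 37.9% lower after TMM scaling. All 40 members had a log2 fold change below 0 in the main test. There this held for 48.3% of all genes, and for 58.7% of genes at 40 CPM or more, against all 34 members at that level. With library totals alone, 37 members were below 0. The share of all genes is not given for that scaling, where their median was 0.096. In 27 members all 4 E64d values lay below all 4 DMSO values, a pattern found in 8.55% of all genes. At 40 CPM or more it was found in 20.4% of genes, against 26 of the 34 members.

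The 40 members together took 0.421, 0.408, 0.409 and 0.391% in the E64d pools, against 0.475, 0.475, 0.464 and 0.458% in the DMSO pools, as a share of all counts of a library. This share, which needs no TMM scaling, was lower in every E64d pool than in every DMSO pool. Each E64d pool had 39 or 40 of the 40 members below their DMSO mean, and each DMSO pool 10 to 30. That mean includes each DMSO pool itself, so the counts of the groups are not alike. The share over all genes is not given for this measure. In RNA of whole embryos, fewer cells of a type and less RNA per cell cannot be told apart.

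The count of called members varied with single libraries. It was 11, 11, 10 and 8 without E64d replicates 1, 2, 3 and 4 (background shares called lower 2.25%, 2.13%, 2.21% and 1.63%) and 11 without DMSO replicate 3 (2.21%). Leaving out DMSO replicate 2 gave 17 members (3.3%), and 16 were called without DMSO replicate 1 or 4 (3.7% and 3.66%). With library totals alone 11 members were called (2.25%). DESeq2 called 22 (7.4% of the 18293 genes to which it gave an adjusted p), and the replicate block 23 (6.95% of 22163), among them all 18. The other settings gave 16 with DESeq2 size factors (3.69%), 16 with no filter (2.67%), 18 by limma-voom (3.6%) and 16 with counts divided by 2 (4%). In each of these settings every called member was lower. The same 8 members were called in every setting tried: psma3, psma6a, psma8, psmb3, psmb4, psmb5, psmb6 and psmd4b. Of these, 7 belong to the core and 1 to the cap. The share of all genes called in every setting was not computed, so nothing is drawn from this count or its split.

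**Figure D1:**
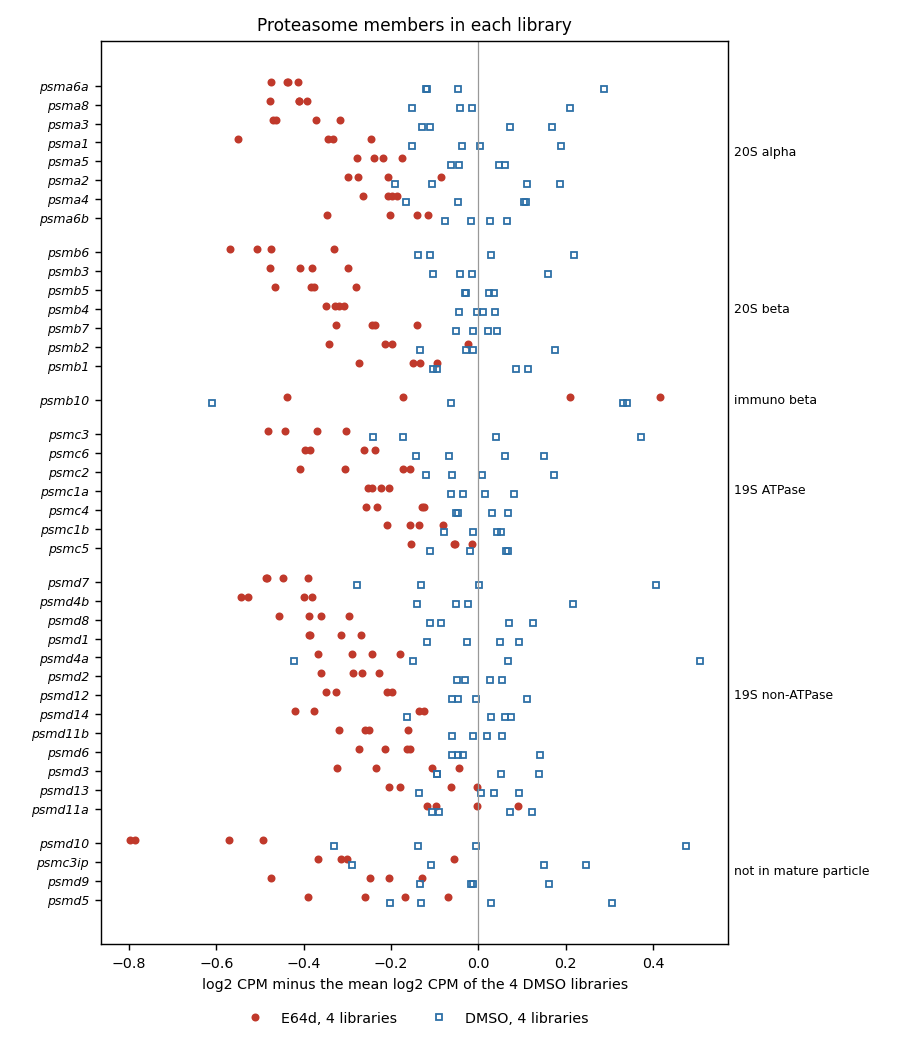
Level of each of the 40 tested members in each library, as log2 CPM minus the mean log2 CPM of the 4 DMSO libraries; filled circles are E64d pools and open squares DMSO pools. In 27 members all 4 E64d pools lie left of all 4 DMSO pools, and psmb10 is spread on both sides of 0 in both groups.

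Of the 8 tested alpha subunit genes, which encode the outer rings and the gate of the barrel, 4 fell and 4 did not pass. Among genes at 40 CPM or more, 10.3% were called lower. psma8, listed with the synonym psma7 in RefSeq, stood at 187, 185, 185 and 177 CPM in the E64d pools, against 239, 285, 244 and 221 CPM in the DMSO pools. All E64d pools were lower than all DMSO pools, and the E64d pools were close together (log2 fold change −0.43 ± 0.08 SE, edgeR adjusted p = 0.00648). The alpha gene psma3 stood at 125, 118, 130.4 and 117 CPM in the E64d pools, against 150.4, 182, 171 and 148 CPM in the DMSO pools. Again the groups did not overlap (log2 fold change −0.41 ± 0.08 SE, edgeR adjusted p = 0.0100). For psma6a the levels were 78.1, 76.1, 79.4 and 78.0 CPM in the E64d pools, against 97.4, 129, 102 and 97.3 CPM in the DMSO pools. DMSO replicate 2 was the highest, and the other DMSO pools still lay above every E64d pool (log2 fold change −0.45 ± 0.09 SE, edgeR adjusted p = 0.0119).

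psma1 stood at 128, 119, 120.5 and 104 CPM in the E64d pools, against 148, 173, 152 and 136 CPM in the DMSO pools, with E64d replicate 4 lowest and no overlap (log2 fold change −0.37 ± 0.09 SE, edgeR adjusted p = 0.0278). Its call ended without E64d replicates 2, 3 or 4 or DMSO replicate 3 (highest adjusted p 0.105) and with library totals alone (adjusted p = 0.0593). psma5 stood at 119.8, 115, 116 and 112 CPM in the E64d pools, against 139.9, 141, 129.6 and 131 CPM in the DMSO pools. Its groups did not overlap either, and it missed the threshold (log2 fold change −0.23 ± 0.06 SE, edgeR adjusted p = 0.0557). The replicate block and DESeq2 each brought psma5 past it (adjusted p = 0.0322 and 0.0158). psma2, psma4 and psma6b had log2 fold changes of −0.22, −0.22 and −0.20 and did not pass (edgeR adjusted p = 0.210, 0.115 and 0.159). Without DMSO replicate 2, psma4 was called lower (adjusted p = 0.0302). psma2 was the only tested alpha gene whose groups overlapped. A further alpha gene, psma6l, had 0 to 6 counts per library and was not tested.

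Of the 7 constitutive beta subunit genes, 4 fell, where 10.3% of genes at 40 CPM or more were called lower. 3 of the 7 encode the subunits with cutting sites: psmb5 for the chymotrypsin-like site, psmb6 for the caspase-like site and psmb7 for the trypsin-like site. psmb5 stood at 149, 149.6, 159.8 and 141 CPM in the E64d pools, against 190.3, 199, 197 and 189.9 CPM in the DMSO pools. The groups were well apart, with a level about 22.9% lower in E64d (log2 fold change −0.37 ± 0.06 SE, edgeR adjusted p = 0.00395). For psmb6 the values were 89.8, 81.3, 76.2 and 79.5 CPM in the E64d pools, against 105, 132, 115 and 103 CPM in the DMSO pools. It had the largest fall of the core, and all E64d pools were below all DMSO pools (log2 fold change −0.48 ± 0.09 SE, edgeR adjusted p = 0.00774). psmb7 stood at 178, 167, 166 and 157 CPM in the E64d pools, against 199, 202, 189.6 and 195 CPM in the DMSO pools. The groups did not overlap, but the difference lay just above the threshold (log2 fold change −0.24 ± 0.06 SE, edgeR adjusted p = 0.0502). The replicate block, limma-voom and DESeq2 each called psmb7 lower (adjusted p = 0.0256, 0.0428 and 0.0115).

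The other 4 constitutive beta genes encode subunits that carry no cutting site. psmb4 stood at 109.7, 113, 112 and 111 CPM in the E64d pools, against 136, 139, 144 and 141 CPM in the DMSO pools. Both groups were tight and apart (log2 fold change −0.33 ± 0.06 SE, edgeR adjusted p = 0.00636). psmb3 showed 86.0, 81.3, 79.7 and 76.0 CPM in the E64d pools, against 105, 118, 103 and 98.4 CPM in the DMSO pools. Here too no E64d pool reached the lowest DMSO pool (log2 fold change −0.39 ± 0.08 SE, edgeR adjusted p = 0.00903). psmb1 and psmb2 had overlapping groups and did not pass, with 137 ± 7.27 CPM in E64d and 154 ± 12.3 CPM in DMSO (SD, n = 4 each) for psmb1 (edgeR adjusted p = 0.246). psmb2 averaged 89.0 ± 8.15 CPM in E64d and 102 ± 9.28 CPM in DMSO (edgeR adjusted p = 0.237).

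The 7 entries of the immunoproteasome and thymoproteasome type (psmb8a, psmb9a, psmb10, psmb11a, psmb11b, psmb12 and psmb13a) encode beta subunits known to replace the constitutive ones in immune cells and the thymus. Of these, only psmb10 passed the filter on low counts. It stood at 3.08, 4.01, 4.62 and 2.56 CPM in the E64d pools, against 4.36, 2.27, 4.39 and 3.32 CPM in the DMSO pools. The groups overlapped (log2 fold change −0.0038 ± 0.26 SE, edgeR adjusted p = 0.997). psmb9a had 8, 0, 4 and 2 counts in the E64d pools, against 6, 4, 2 and 6 counts in the DMSO pools. psmb12 had at most 8 counts in any library, psmb13a at most 4 and psmb11b at most 2. psmb8a and psmb11a had 0 counts in all 8 libraries. If counts are independent, this allows up to 3 counts per library, or 0.0779 to 0.0985 CPM, and more if both mates of a pair were counted. In the RefSeq assembly GRCz12tu, psmb8a, psmb9a, psmb12 and psmb13a are neighbours with overlapping spans next to tap2a, and how reads that fall on several genes were counted is not given in the sources used here. Interferon is known to induce the immunoproteasome type. Of 12 tested genes of the interferon response, 2 rose and 10 were not called, where 2.28% of all genes tested were called higher. isg15, which encodes a ubiquitin-like protein, averaged 32.3 ± 12.2 CPM in E64d and 0.122 ± 0.0867 CPM in DMSO (SD, n = 4 each), with 2 to 8 counts in each DMSO pool. The transcription factor gene irf1b averaged 3.55 ± 2.02 CPM in E64d and 0.795 ± 0.220 CPM in DMSO and rose by edgeR (log2 fold change 2.15 ± 0.49 SE, edgeR adjusted p = 0.0210). Its groups overlapped, with E64d replicate 2 at 0.761 CPM and the DMSO pools at 0.548 to 1.08 CPM. Its call ended without E64d replicates 1, 3 or 4 or DMSO replicates 3 or 4 (highest adjusted p 0.0881) and by limma-voom (adjusted p = 0.163). By edgeR, none of 9 tested leukocyte markers and none of 12 tested genes of antigen processing was called. At an unadjusted p under 0.05 the count was 0 in both lists, where the smallest p belonged to lcp1 and b2ml, and DESeq2 and limma-voom called 0 as well. The summed leukocyte markers (10 genes) spanned 34.5 to 53.0 CPM in E64d and 38.0 to 49.96 CPM in DMSO.

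Of the 7 genes for the ATPases of the cap, the ring that unfolds substrates and feeds them into the barrel, 2 fell. The share called lower at 40 CPM or more was 10.3% of genes. psmc6 stood at 128, 117, 130.00 and 116 CPM in the E64d pools, against 146, 170.1, 159.9 and 139 CPM in the DMSO pools. All E64d pools were below all DMSO pools (log2 fold change −0.32 ± 0.08 SE, edgeR adjusted p = 0.0313). psmc1a showed 118, 119, 116 and 115 CPM in the E64d pools, against 134, 139, 145 and 131 CPM in the DMSO pools. The groups were narrow and did not overlap (log2 fold change −0.23 ± 0.06 SE, edgeR adjusted p = 0.0479). The call of psmc6 ended without E64d replicates 1, 2, 3 or 4 or DMSO replicate 3 (highest adjusted p 0.119) and with library totals alone (adjusted p = 0.0787). That of psmc1a ended without any single library (highest adjusted p 0.148), with DESeq2 size factors (adjusted p = 0.0517), with library totals alone (adjusted p = 0.196), with no filter (adjusted p = 0.0900) and after dividing counts by 2 (adjusted p = 0.0506).

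psmc3 had the largest drop in mean among the ATPase genes, at 159, 151, 166 and 147 CPM in the E64d pools, against 174, 266, 211 and 182 CPM in the DMSO pools. DMSO replicate 2 was far above the other DMSO pools, the groups did not overlap, and the test was just missed (log2 fold change −0.42 ± 0.12 SE, edgeR adjusted p = 0.0537). It was called with the replicate block (log2 fold change −0.40, adjusted p = 0.0143), with DESeq2, with no filter, and without DMSO replicates 1 or 4 (adjusted p = 0.00999, 0.0358, 0.0245 and 0.0445). psmc2 did not pass (log2 fold change −0.26 ± 0.08 SE, edgeR adjusted p = 0.0901) except with the replicate block and with DESeq2 (adjusted p = 0.0207 and 0.0475). psmc4 and psmc1b did not pass either (log2 fold changes −0.19 and −0.15), although their groups did not overlap. psmc5 was the only ATPase gene with overlapping groups, at 130.3 ± 5.26 CPM in E64d and 137 ± 7.89 CPM in DMSO (SD, n = 4 each).

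Of the 13 genes for the other subunits of the cap, which bind ubiquitin, cut it off and hold the cap together, 7 fell. At 40 CPM or more 10.3% of genes were called lower, and psmd4a alone of the 13 was below that level. The scaffold subunit gene psmd1 stood at 314, 304, 289 and 289 CPM in the E64d pools, against 403, 391, 371 and 348 CPM in the DMSO pools. The lowest DMSO pool was above the highest E64d pool (log2 fold change −0.34 ± 0.07 SE, edgeR adjusted p = 0.0103). psmd2, which encodes the other large scaffold subunit, showed 94.4, 96.98, 88.5 and 93.1 CPM in the E64d pools, against 116, 118, 109.9 and 111 CPM in the DMSO pools. Its groups were narrow and apart (log2 fold change −0.29 ± 0.06 SE, edgeR adjusted p = 0.0214). psmd4b, a gene for a ubiquitin receptor of the cap, stood at 60.9, 55.1, 61.7 and 55.8 CPM in the E64d pools, against 77.6, 93.3, 79.03 and 72.8 CPM in the DMSO pools. The groups did not overlap, and its level was 27.7% lower in E64d (log2 fold change −0.47 ± 0.09 SE, edgeR adjusted p = 0.00683). The call of psmd1 ended without E64d replicate 4 (adjusted p = 0.0521), and that of psmd2 ended without E64d replicates 1, 3 or 4 (highest adjusted p 0.0750) and with library totals alone (adjusted p = 0.0929).

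The remaining called genes of this class encode subunits of the lid, the part of the cap that removes ubiquitin. psmd8 stood at 100.4, 98.5, 105 and 94.0 CPM in the E64d pools, against 122, 141, 135 and 119 CPM in the DMSO pools. No E64d pool reached a DMSO pool (log2 fold change −0.38 ± 0.07 SE, edgeR adjusted p = 0.0102). For psmd7, whose product pairs with the deubiquitinase of the lid, the values were 47.7, 45.9, 44.6 and 44.7 CPM in the E64d pools, against 51.6, 83.0, 62.5 and 57.1 CPM in the DMSO pools. The E64d pools were nearly equal while the DMSO pools ranged widely, with replicate 2 highest (log2 fold change −0.48 ± 0.12 SE, edgeR adjusted p = 0.0404). psmd12 had 124, 125, 113 and 115 CPM in the E64d pools, against 143, 155, 139 and 138 CPM in the DMSO pools. Its groups did not overlap (log2 fold change −0.27 ± 0.07 SE, edgeR adjusted p = 0.0389). psmd11b stood at 76.1, 81.5, 76.7 and 73.1 CPM in the E64d pools, against 94.6, 90.4, 87.4 and 92.5 CPM in the DMSO pools. Its groups were apart, with a call close to the threshold (log2 fold change −0.25 ± 0.07 SE, edgeR adjusted p = 0.0478).

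Among these lid genes, the call of psmd8 ended without E64d replicate 4 (adjusted p = 0.0506). That of psmd7 ended without E64d replicates 1, 2, 3 or 4 or DMSO replicate 3 (highest adjusted p 0.127), with library totals alone (adjusted p = 0.0633) and by limma-voom (adjusted p = 0.0535). psmd12 was not called without any single library (highest adjusted p 0.137), with library totals alone (adjusted p = 0.123) and with no filter (adjusted p = 0.0572). psmd11b was not called without any single library (highest adjusted p 0.163), with DESeq2 size factors (adjusted p = 0.0504), with library totals alone (adjusted p = 0.205), with no filter (adjusted p = 0.0843) and after dividing counts by 2 (adjusted p = 0.0501).

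The deubiquitinase of the lid, psmd14, had 93.0, 75.8, 92.2 and 78.1 CPM in the E64d pools, against 103, 90.5, 106 and 107 CPM in the DMSO pools. E64d replicates 1 and 3 lay within the DMSO range, and the test was missed (log2 fold change −0.26 ± 0.09 SE, edgeR adjusted p = 0.111). With the replicate block psmd14 passed (adjusted p = 0.0282), as it did without DMSO replicate 2 (adjusted p = 0.0497). psmd3, psmd4a, psmd6, psmd11a and psmd13 did not pass, with log2 fold changes of −0.31 for psmd4a to −0.033 for psmd11a. Of these, psmd6 alone had groups that did not overlap (126 ± 4.72 CPM in E64d and 145 ± 9.77 CPM in DMSO).

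The 4 entries that are no part of the mature particle included the steepest called fall of all members. psmd10 (gankyrin), a chaperone that holds ATPases of the cap during assembly, stood at 10.1, 8.67, 10.6 and 8.598 CPM in the E64d pools, against 11.9, 20.8, 14.9 and 13.6 CPM in the DMSO pools. All E64d pools were below all DMSO pools, with DMSO replicate 2 highest (log2 fold change −0.69 ± 0.17 SE, edgeR adjusted p = 0.0298). Its call ended without E64d replicates 1, 2, 3 or 4 or DMSO replicate 3 (highest adjusted p 0.108). The assembly chaperone genes psmd9 and psmd5 had overlapping groups and did not pass (log2 fold change −0.26 ± 0.11 SE, edgeR adjusted p = 0.180 for psmd9). psmd5 averaged 23.9 ± 2.25 CPM in E64d and 28.1 ± 4.56 CPM in DMSO (edgeR adjusted p = 0.318). psmc3ip averaged 10.3 ± 1.03 CPM in E64d and 12.4 ± 2.07 CPM in DMSO (edgeR adjusted p = 0.320).

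**Figure D2:**
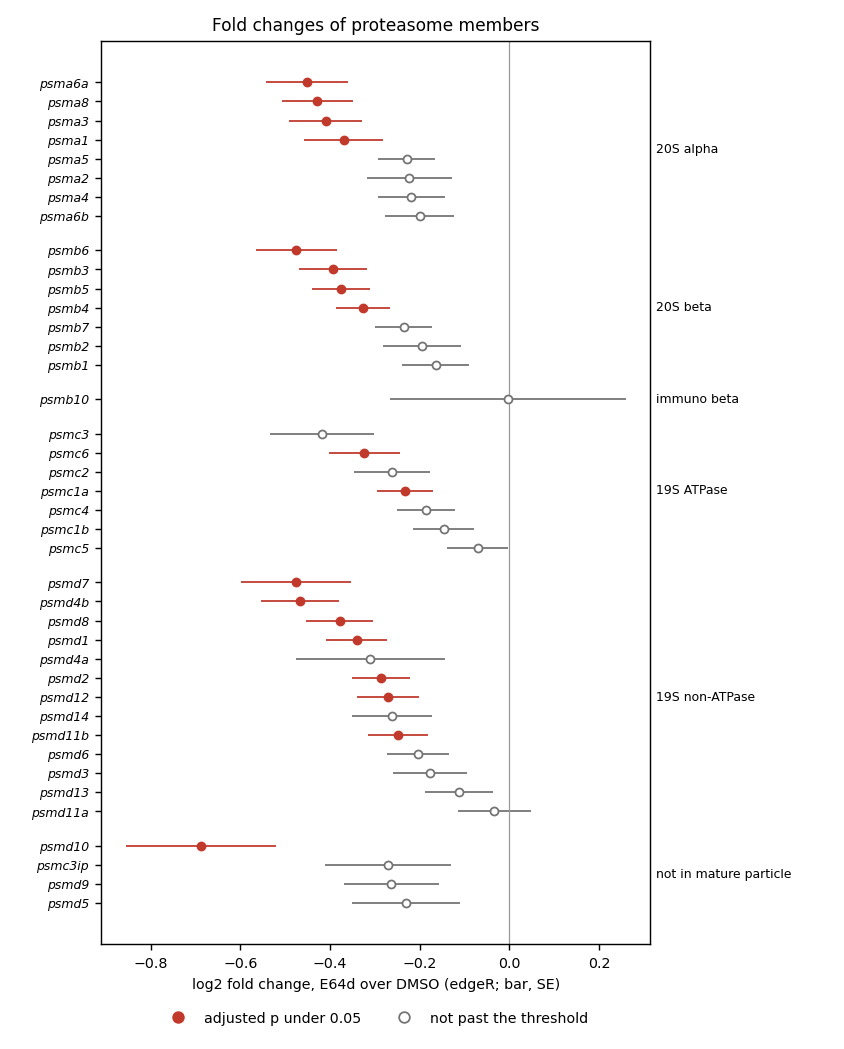
Log2 fold change of each tested member, E64d over DMSO, with its standard error, grouped by class; filled points passed an edgeR adjusted p under 0.05. All 40 points lie left of 0, from −0.69 for psmd10 to −0.0038 for psmb10, and 18 are filled.

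The core and the cap were both lower, and whether by similar amounts depended on the measure and the members taken. In the core 8 of 16 tested genes fell, with a median log2 fold change of −0.28. In the cap 10 of 24 fell, with a median of −0.26. Without the entries that are no part of the mature particle, 9 of 20 cap genes fell, with a median of −0.26. The share called lower was 3.85% of all genes tested and 10.3% of genes at 40 CPM or more. The medians of these were 0.011 and −0.043. The difference of the medians, core minus cap, was −0.019 on the log2 scale. It was −0.064 without the immunoproteasome and thymoproteasome type, of which psmb10 alone was tested, and −0.068 without DMSO replicate 2. Between single libraries the difference had a pooled SD of 0.031 within groups, over all tested members and all 8 libraries. This SD was not computed anew for the other settings. It describes single libraries and not group means, so it does not tell whether core and cap differed. By class, the medians were −0.30 for the alpha genes, −0.33 for the constitutive beta genes, −0.23 for the ATPases and −0.27 for the other cap subunits.

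Summed over genes, the core stood at 1707, 1657, 1665 and 1559 CPM in the E64d pools, against 2038, 2176, 2034 and 1976 CPM in the DMSO pools. The cap stood at 2407, 2323, 2296 and 2216 CPM in the E64d pools, against 2754, 2949, 2737 and 2650.01 CPM in the DMSO pools. In neither did the groups overlap, and the mean sum was 19.9% lower for the core and 16.7% lower for the cap. The ratio of core to cap counts within a library needs no scaling between libraries. It was 0.709, 0.713, 0.725 and 0.703 in the E64d pools, against 0.740, 0.738, 0.743 and 0.746 in the DMSO pools. Every E64d pool was below every DMSO pool in this ratio, which averaged 0.713 ± 0.00926 in E64d and 0.742 ± 0.00343 in DMSO (SD, n = 4 each). The sums weight abundant genes. The difference of mean log2 CPM, core minus cap, which weights genes equally, averaged 0.23 ± 0.041 in E64d and 0.25 ± 0.064 in DMSO. It was 0.207, 0.274, 0.261 and 0.188 in the E64d pools, against 0.298, 0.158, 0.271 and 0.281 in the DMSO pools. The groups overlapped, with DMSO replicate 2 the lowest of all and E64d replicate 2 just above DMSO replicate 3. Over all tested members the 2 measures therefore differed on whether core and cap were apart, and no test was made over the members. The second gives psmb10 and the 4 entries outside the mature particle full weight. In DMSO replicate 2, psmb10 lay 0.81 below the mean log2 CPM of the other DMSO pools, and those 4 entries lay 0.21 to 0.63 above. The measure was not computed without these entries. By class, E64d minus DMSO in mean log2 CPM was −0.31 (alpha), −0.31 (constitutive beta), −0.23 (ATPases) and −0.27 (other cap subunits).

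**Figure D3:**
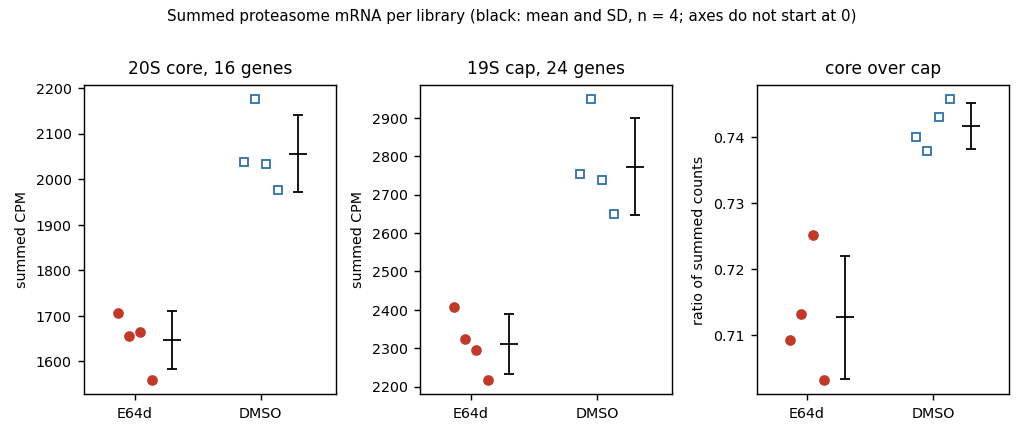
Summed CPM of the 16 tested core genes and the 24 tested cap genes, and the ratio of the summed counts, in each of the 4 E64d and 4 DMSO libraries; black bars give the mean and SD. The E64d pools lie below the DMSO pools in all 3 panels, with ratios of 0.703 to 0.725 in E64d and 0.738 to 0.746 in DMSO.

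For 4 subunits both copies of a duplicated gene were tested, and in each pair 1 copy was called lower and the other was not. The calls of psmc1a and psmd11b were close to the threshold (edgeR adjusted p = 0.0479 and 0.0478). Both ended whichever single library was left out. psmd4a, which was not called, had a larger fall (log2 fold change −0.31) than psmc1a and psmd11b (−0.23 and −0.25). Whether the copies differed was tested on the log2 ratio of their counts within a library, by a 2-sided exact permutation test, whose smallest possible p with 4 against 4 pools is 0.0286. The ratio of psmc1a to psmc1b was 0.65, 0.74, 0.68 and 0.75 in the E64d pools, against 0.77, 0.76, 0.83 and 0.81 in the DMSO pools. It was lower in every E64d pool (difference −0.085, exact permutation p = 0.0286, adjusted over the 4 pairs 0.114). The ratio of psmd11a to psmd11b was −0.20, −0.49, −0.42 and −0.24 in the E64d pools, against −0.53, −0.63, −0.60 and −0.45 in the DMSO pools. E64d replicate 2 lay within the DMSO range (difference 0.22, exact permutation p = 0.0571, adjusted 0.114).

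For psma6a over psma6b the log2 ratios were 0.65, 0.64, 0.76 and 0.88 in the E64d pools, against 0.87, 1.20, 1.00 and 0.82 in the DMSO pools. E64d replicate 4 lay above 2 of the DMSO pools (difference −0.24, exact permutation p = 0.0857, adjusted 0.114). The ratio of psmd4a to psmd4b differed by 0.19, with groups that overlapped (exact permutation p = 0.2, adjusted 0.2). None of the 4 pairs passed after adjustment, but the adjusted test could pass only if at least 3 of the 4 pairs were at the smallest possible p, so nothing is drawn from it. Taken within replicate numbers, E64d minus DMSO had one sign in all 4 numbers for psmc1a to psmc1b (−0.15 to −0.012), psmd11a to psmd11b (0.14 to 0.33) and psmd4a to psmd4b (0.00068 to 0.44), and in 3 of 4 for psma6a to psma6b (−0.56 to 0.056). With 4 numbers an exact sign-flip test cannot go below 0.125. psmd11a, the copy with the smallest fold change of the cap, averaged 60.9 ± 4.10 CPM in E64d and 62.3 ± 4.99 CPM in DMSO (SD, n = 4 each). Reads that map to both copies of a pair could have been split or dropped.

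**Figure D4:**
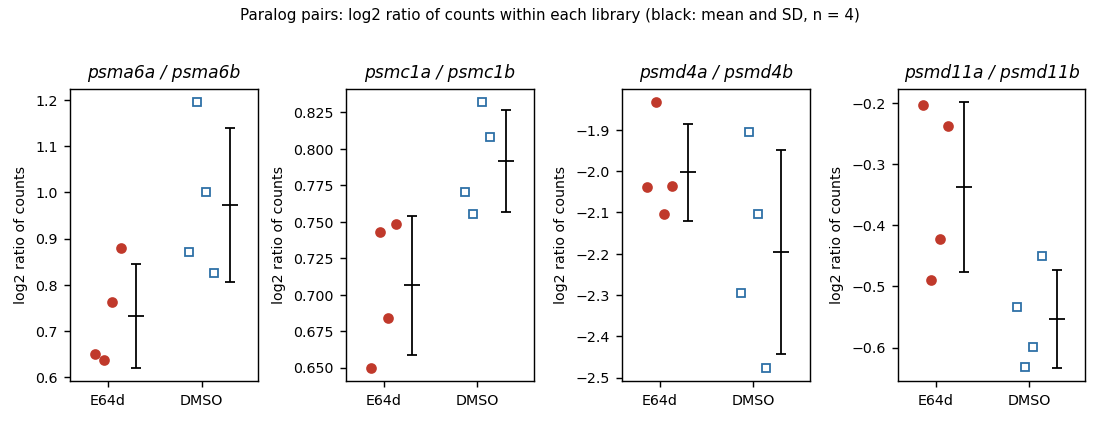
Log2 ratio of the counts of 2 gene copies within each library, for the 4 duplicated subunits, with mean and SD in black. The psmc1a to psmc1b ratios of the E64d pools (0.65 to 0.75) all lie below those of the DMSO pools (0.76 to 0.83), and the groups overlap for the other 3 pairs.

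Genes that work with the proteasome were examined from lists chosen by function. Their counts stand beside 3.85% of all genes called lower, 10.3% called lower at 40 CPM or more, and 2.28% called higher. Of 8 tested assembly chaperones, which include psmd5, psmd9 and psmd10, 3 fell and the median log2 fold change was −0.31. Without any single one of the E64d pools, or without DMSO replicate 3, none of the 8 was called. pomp, the maturation factor of the core, averaged 51.2 ± 2.32 CPM in E64d and 63.7 ± 5.12 CPM in DMSO (SD, n = 4 each) and fell (log2 fold change −0.32 ± 0.08 SE, edgeR adjusted p = 0.0323). ecpas, whose product binds the cap and core, averaged 82.2 ± 5.40 CPM in E64d and 101 ± 7.21 CPM in DMSO and also fell (log2 fold change −0.30 ± 0.08 SE, edgeR adjusted p = 0.0409). The call of pomp ended without E64d replicates 1, 2, 3 or 4 or DMSO replicates 1, 2 or 3 (highest adjusted p 0.123) and with library totals alone (adjusted p = 0.0875). That of ecpas ended without any single library (highest adjusted p 0.148), with library totals alone (adjusted p = 0.147) and with no filter (adjusted p = 0.0510). psmg2 averaged 17.3 ± 1.73 CPM in E64d and 21.8 ± 2.15 CPM in DMSO, with groups that did not overlap, and did not pass (edgeR adjusted p = 0.0946). The replicate block called psmg2, a core assembly chaperone, lower (adjusted p = 0.0347).

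Of 12 other cap subunits and cap-bound proteins, 2 fell (16.7%, not far from the 10.3% at 40 CPM or more). Both encode cap subunits whose names lie outside the psm series. sem1, a small lid subunit, stood at 58.1, 45.9, 47.6 and 49.4 CPM in the E64d pools, against 74.5, 77.1, 67.8 and 62.8 CPM in the DMSO pools, and the groups did not overlap (log2 fold change −0.49 ± 0.09 SE, edgeR adjusted p = 0.00852). adrm1, a ubiquitin receptor of the cap, had 119, 109, 108 and 101 CPM in the E64d pools, against 136, 154, 134 and 129.6 CPM in the DMSO pools. It too was lower in every E64d pool (log2 fold change −0.34 ± 0.08 SE, edgeR adjusted p = 0.0216), a call that ended without E64d replicates 2, 3 or 4 (highest adjusted p 0.0907) and with library totals alone (adjusted p = 0.0553). The deubiquitinase gene usp14 averaged 90.0 ± 4.03 CPM in E64d and 109 ± 9.70 CPM in DMSO and did not pass (log2 fold change −0.27 ± 0.08 SE, edgeR adjusted p = 0.0599). usp14 was called lower with the replicate block, by DESeq2 and without DMSO replicate 4 (adjusted p = 0.0246, 0.0231 and 0.0432). ubr4, a ubiquitin ligase gene, did not pass (log2 fold change 0.31 ± 0.11 SE, edgeR adjusted p = 0.126), but was called higher with the replicate block and without DMSO replicate 1 (adjusted p = 0.0285 and 0.0381). Of 5 tested activators and the inhibitor, 1 fell: psme3, a nuclear activator of the core, at 50.6 ± 1.45 CPM in E64d and 62.5 ± 2.53 CPM in DMSO (log2 fold change −0.30 ± 0.07 SE, edgeR adjusted p = 0.0207). Its call ended without E64d replicates 2, 3 or 4 or DMSO replicate 1 (highest adjusted p 0.0845) and with library totals alone (adjusted p = 0.0987).

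In the list of the NFE2L1 route, the known regulator of subunit genes in mammals, the 2 genes that passed went the other way, and the list as a whole was mixed. Of 12 tested genes 2 rose and none fell, with a median of 0.16, and 6 of the 12 had a log2 fold change below 0. nfe2l1a stood at 14.1, 15.96, 13.5 and 15.3 CPM in the E64d pools, against 8.603, 8.98, 11.05 and 11.3 CPM in the DMSO pools. All E64d pools were above all DMSO pools (log2 fold change 0.56 ± 0.13 SE, edgeR adjusted p = 0.0206). That call ended without E64d replicates 2 or 4 (highest adjusted p 0.0757). The other copy, nfe2l1b, averaged 39.3 ± 2.63 CPM in E64d and 40.1 ± 1.56 CPM in DMSO (SD, n = 4 each) and did not pass (edgeR adjusted p = 0.890). mafga, a gene for a small Maf partner of this factor family, also rose, at a low level, with 2.88, 1.43, 2.88 and 2.17 CPM in the E64d pools, against 0.601, 0.117, 0.430 and 0.731 CPM in the DMSO pools (log2 fold change 2.31 ± 0.46 SE, edgeR adjusted p = 0.0109). nfe2l2b averaged 3.93 ± 1.04 CPM in E64d and 2.00 ± 1.20 CPM in DMSO and did not pass (log2 fold change 0.97 ± 0.35 SE, edgeR adjusted p = 0.135). Leaving out DMSO replicate 1 made it called higher (log2 fold change 1.49, adjusted p = 0.00914), as did the blocked fit (adjusted p = 0.0137). maff and nfe2l2a did not pass in the main test (edgeR adjusted p = 0.120 and 0.122). maff was called higher with library totals alone and without DMSO replicate 2 (adjusted p = 0.0426 and 0.0460). nfe2l2a was called higher without E64d replicate 2 (adjusted p = 0.0449).

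None of the 8 tested genes for ubiquitin and its activating enzymes was called by edgeR, DESeq2 or limma-voom, and the median was 0.0046. At an unadjusted p under 0.05 edgeR gave 1, uba1, the main activating enzyme (log2 fold change −0.16 ± 0.06 SE, edgeR adjusted p = 0.169). Of 10 tested ubiquitin receptors and shuttles, 2 fell, where 10.3% of genes at 40 CPM or more did: nsfl1c, a cofactor of the segregase vcp, at 112 ± 7.21 CPM in E64d and 167 ± 33.8 CPM in DMSO (log2 fold change −0.58 ± 0.12 SE, edgeR adjusted p = 0.0125), and ubxn1 (log2 fold change −0.40 ± 0.10 SE, edgeR adjusted p = 0.0396). The call of nsfl1c ended without E64d replicate 4 (adjusted p = 0.0583). That of ubxn1 ended without E64d replicates 1, 2, 3 or 4 or DMSO replicates 2 or 3 (highest adjusted p 0.139) and with library totals alone (adjusted p = 0.0766). vcp itself averaged 659 ± 37.9 CPM in E64d and 707 ± 44.3 CPM in DMSO and did not pass.

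Of 12 other peptidases, most of them cytosolic, 2 fell (16.7%, beside 10.3% at 40 CPM or more). Both act on short peptides such as those the proteasome releases. thop1 stood at 82.5, 82.9, 81.7 and 75.7 CPM in the E64d pools, against 109.97, 117, 106 and 99.7 CPM in the DMSO pools. The groups did not overlap (log2 fold change −0.42 ± 0.07 SE, edgeR adjusted p = 0.00372). dpp3 averaged 74.3 ± 3.18 CPM in E64d and 102 ± 14.1 CPM in DMSO (log2 fold change −0.46 ± 0.09 SE, edgeR adjusted p = 0.0120), a call that ended without E64d replicate 4 (adjusted p = 0.0565). The aminopeptidase gene lap3 did not pass (log2 fold change −0.36 ± 0.12 SE, edgeR adjusted p = 0.0978) but was called lower in the blocked fit, by DESeq2 and without DMSO replicate 4 (adjusted p = 0.0414, 0.0479 and 0.0252).

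**Figure D5:**
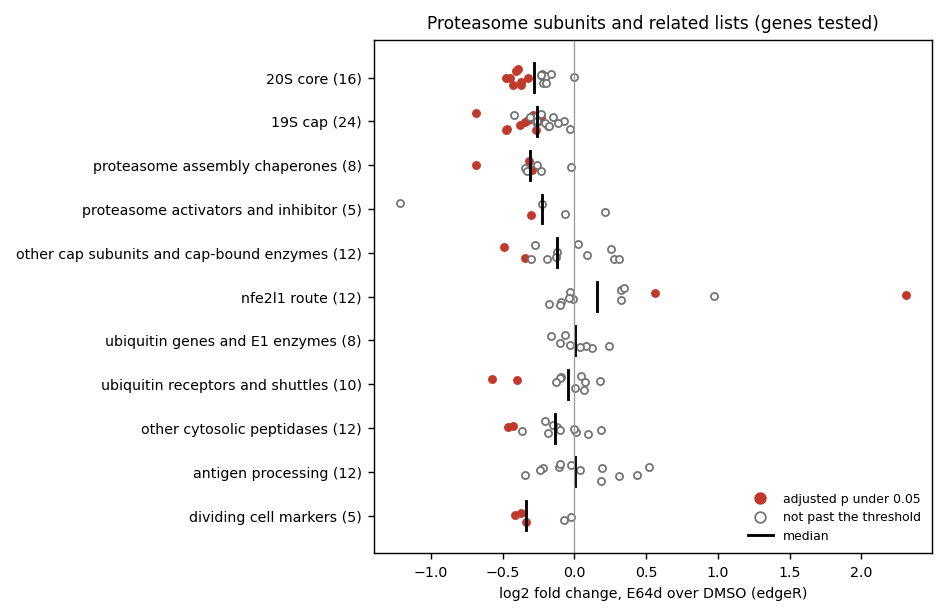
Log2 fold change (E64d over DMSO) of each tested gene of the core, the cap and the related lists, with the median as a bar; filled points passed an edgeR adjusted p under 0.05. The core, cap and assembly chaperones have medians of −0.28, −0.26 and −0.31, the ubiquitin genes lie around 0, and the called genes of the NFE2L1 route lie to the right.

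Some cell type markers were also called lower in E64d, where 3.85% of all genes tested were, and 10.3% at 40 CPM or more. Of 5 markers of dividing cells, 3 fell: pcna, mcm5 and ccnb1, with log2 fold changes of −0.41, −0.37 and −0.34 (edgeR adjusted p = 0.0181, 0.0115 and 0.0209). Their calls ended without E64d replicate 4 (adjusted p = 0.0764, 0.0565 and 0.0896). Those of pcna and ccnb1 also ended without E64d replicate 1 or DMSO replicate 3 (highest adjusted p 0.0673). That of ccnb1 further ended without E64d replicate 2 (adjusted p = 0.0602) and with library totals alone (adjusted p = 0.0609). mki67 and top2a did not pass and changed little (log2 fold changes −0.023 and −0.073). The summed level of the 5 genes was 2383 to 2536 CPM in E64d and 2662 to 3110 CPM in DMSO, with no gene at 0. Of 3 tested markers of the yolk syncytial layer, mttp and slc40a1 fell (log2 fold changes −2.86 and −0.64). The third, apobb.1, passed only in the fit with the replicate block (adjusted p = 0.140 without the block and 0.00377 with it). The 4 listed genes summed to 6031 to 8269 CPM in E64d and 7742 to 10180 CPM in DMSO, with groups that overlapped. Most of this sum was apobb.1, at 5964 to 8193 CPM in E64d and 7600 to 10003 CPM in DMSO. mxtx2, which was not tested, had 0 to 4 counts per library. The 5 erythroid markers summed to 278 to 722 CPM in E64d and 292 to 922 CPM in DMSO, and none was called by edgeR (0 at an unadjusted p under 0.05), DESeq2 or limma-voom, while gata1a was called with the replicate block (log2 fold change 0.66, adjusted p = 0.0448). The part of these cell types in the fall of the proteasome genes was not tested.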

How the data were processed

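Whole-number counts of reads were deposited by the authors, with 1 row per gene symbol and 1 column per library. The table's other 6 columns carry no sample name and were left out. Per the submitters' processing notes, the build was GRCz11, the aligner STAR 2.7.10b and the counter featureCounts 2.0.6, after Trim Galore 0.6.10 and FastQC 0.12.1. The sources used here name no annotation, strand setting or rule for reads shared by several genes. Of counts from 1 to 20, 75.9% to 80.7% were even, as where both mates of a pair are counted. Floors take counts as independent and would then be too low. Floors cover counting error only, while SDs and standard errors also take in the spread between pools. Counts divided by 2 were an alternative.

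Sample titles gave the group and replicate number. The main test was that of edgeR 4.0.16 in R 4.3.3 (filterByExpr, TMM, quasi-likelihood test, Benjamini-Hochberg adjustment over 22163 genes, adjusted p under 0.05). Standard errors were derived from the test statistic. DESeq2 1.42.0, limma-voom (limma 3.58.1), other scalings, no filter, a replicate block and leaving out each library were alternatives. The test was also run on simulated counts. These were drawn independently for each gene and library, so paired libraries and doubled mates were not covered. Same-numbered libraries correlated at 0.113 to 0.379 in their deviations from the group means and others at −0.21 to 0.055. By the data, and not by the labels, the replicate numbers therefore pair libraries. The main test did not use this pairing, so its calls and misses ignore it. The replicate block did use it and called 23 members, where the main test called 18.

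The members and lists were chosen with earlier results of these data known. The 13 lists had 131 entries, of which 127 were found in the table (some by a RefSeq synonym) and 114 tested. Named genes were every called member, the most read and the most changed member of each class, psmb5, psmb8a, psmb9a, psmd11b and psmd14, up to 4 called genes of each list or else the 1 with the smallest p, and nfe2l1a and nfe2l1b. Other members and list genes were named after their values were seen, and the ratio test of gene copies and the level of 40 CPM were added then. In GRCz12tu, 13 of 47 members overlap another gene.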

Additional observations from a re-analysis of the deposited data

Results flagged for a closer look

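In 94 groups of 4 libraries examined for a library far from the others (each tested member, the sums, and the ratios of gene copies), 2 had one, where chance gives about 1 in 20 groups. Both were DMSO replicate 2. It held psma6a at 129.0 CPM, with 97.3 to 102 CPM in the other DMSO pools, and psmd6 at 159.6 CPM, with 139 to 141 CPM in the others. Without it psma6a was still called lower (log2 fold change −0.34, edgeR adjusted p = 0.00528) and psmd6 was still not called (log2 fold change −0.15, edgeR adjusted p = 0.196).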

How the results depend on the processing

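No alternative called a member higher. With library totals alone, 11 members were called (4 of the cap) and the medians were −0.20 for the core and −0.18 for the cap, while the median of all genes was 0.096. With the replicate block 23 members were called (10 of the core, 13 of the cap), and 2580 genes of the whole table. DESeq2 called 22 members and 2207 genes. The difference of the medians, core minus cap, was −0.064 with no filter and −0.064 without the immunoproteasome and thymoproteasome type. Leaving out 1 library at a time gave 8 to 17 members, 7 to 9 of the core and 1 to 8 of the cap, with medians of −0.31 to −0.26 for the core and −0.29 to −0.21 for the cap, differences of −0.068 to 0.0017, and 655 to 1396 genes of the whole table. The lowest counts came without E64d replicate 4, which left 1 cap gene called, psmd4b. Few reads were counted for the immunoproteasome and thymoproteasome type, where all but psmb10 had at most 8 counts in a library. The causes were not tested.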

Other observations

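DMSO replicate 2 was the highest of the 4 DMSO pools in 27 of the 40 tested members and the lowest in 6. Its log2 difference from the mean of the other DMSO pools ran from −0.81 to 0.68 over the members. Of genes whose spans overlap a member in GRCz12tu, nxt2 beside psmd10 averaged 7.48 CPM in E64d and 8.29 CPM in DMSO, and pkd1l2b beside psmd7 averaged 3.98 CPM in E64d and 2.69 CPM in DMSO. The span of psmd2 overlaps alp3, which averaged 2.39 CPM in E64d and 1.25 CPM in DMSO. Of the genes overlapping psmd1, ppp1r2 averaged 22.5 CPM in E64d and 26.2 CPM in DMSO. Reads shared with these genes cannot be told apart where strand was not used.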
